A study of Mus musculus with 6 samples.

Results

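Heat shock proteins and J-domain proteins form the main protein folding machinery of the cell, and their mRNAs were described here in the neocortex of mice that lack the RNA-binding protein HuD. The members were chosen by gene name, with earlier results of these data known. They are the genes of the 6-library expression table whose symbols begin with Hspa, Hspb, Hspd, Hspe, Hsph, Hsp90 or Dnaj. Hspbap1 and Hspb11, which carry such a name without being chaperones of these families, were left out. The rule found 63 of the 13299 genes in the table. They comprised 10 Hsp70 genes, 3 Hsp110 genes, 3 Hsp90 genes, both subunits of the mitochondrial chaperonin, 5 small heat shock protein genes, the Hsp70 nucleotide exchange factor Hspbp1, and 4 DnaJA, 10 DnaJB and 25 DnaJC genes, which encode the J-domain cochaperones.

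The study compared 3 HuD KO mice (Elavl4-/-) with 3 wildtype littermates of the same line, called control mice here. In the HuD KO line a PGK-Neo cassette takes the place of exon 2 of Elavl4 and shifts the reading frame, so the loss is germline and not limited to a cell type or an age. All animals were adult males of about 3 to 4 months on a C57BL/6 background, and none received a treatment. Paired-end RNA-seq of the whole dissected neocortex gave 1 library per mouse, and each value is in FPKM, fragments per kilobase of transcript scaled to the mapped total of the library, so levels can be compared between genes per length. The study's methods left out 1 HuD KO library as an outlier in a principal component analysis, and the deposited table without it shows that this was HuD KO replicate 2. The comparison therefore rests on the 5 other libraries. Values over all 6 are given beside some of the counts and fold changes, and for every member in the plot of fold changes.

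The deleted gene matched its labels, with Elavl4 at 1.70, 1.07 and 1.52 FPKM in HuD KO cortex, against 34.2, 30.4 and 28.3 FPKM in control cortex. Neuron markers summed to between 632 and 867 FPKM. Control replicate 3 had the 632, together with 287 FPKM of the choroid plexus gene Ttr and 127 FPKM of the hypothalamic neuropeptide gene Pmch. Choroid plexus markers (3 in the table, none listed at 0 in any library) summed to 160, 5.97 and 88.3 FPKM in HuD KO replicates 1 to 3, and to 3.20, 2.81 and 293 FPKM in control replicates 1 to 3. All 5 meningeal fibroblast markers had lower means in HuD KO cortex, and their sums were 9.20 to 11.0 FPKM in HuD KO libraries, against 14.0 to 22.4 FPKM in control libraries. In bulk tissue, fewer cells of a type and less RNA per cell cannot be told apart, and the part of these differences in the values below was not tested.

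As background, Hsp70 proteins hold unfolded stretches of other proteins in a cycle of ATP binding and hydrolysis. J-domain proteins bring clients to Hsp70 and start the hydrolysis, exchange factors such as the Hsp110 proteins reload it, and Hsp90 takes over late folding of kinases and receptors. Small heat shock proteins bind misfolded proteins without ATP. Under heat or protein damage the heat shock factor HSF1 switches on the cytosolic set through heat shock elements, whereas the endoplasmic reticulum has its own response through a different promoter element. Neurons depend on these families for clathrin uncoating, synaptic vesicle protein folding and clearance of aggregates.

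The levels of the 63 mRNAs spanned more than any difference between genotypes. Over the 5 libraries, mean levels ran between 0.73 FPKM for Hspb2 and 382.9 FPKM for Hsp90ab1, the constitutive cytosolic Hsp90, with a median of 13.4 FPKM. The 3 Hsp90 genes alone held 37.4% of the summed FPKM of the members, the 10 Hsp70 genes 18.5%, and the 25 DnaJC genes 17.0%. The 5 small heat shock protein genes held 0.785%, and the highest of them, Hspb8, averaged 5.17 FPKM. In the order of levels, Hsp90ab1 was followed by Hsp90aa1 (256.1 FPKM), Hspa8 (173.8 FPKM), Hsp90b1 (82.2 FPKM), the J-domain gene Dnaja2 (73.0 FPKM) and the chaperonin gene Hspd1 (67.3 FPKM). The ranges of Hsp90ab1 (357 to 414 FPKM) and Hsp90aa1 (236 to 287 FPKM) did not meet over the 5 libraries, whereas those of Dnaja2 (69.3 to 76.7 FPKM) and Hspd1 (62.1 to 78.0 FPKM) overlapped, as did those of Hsp90b1 (76.0 to 94.3 FPKM) and Dnaja2.

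**Figure D1:**
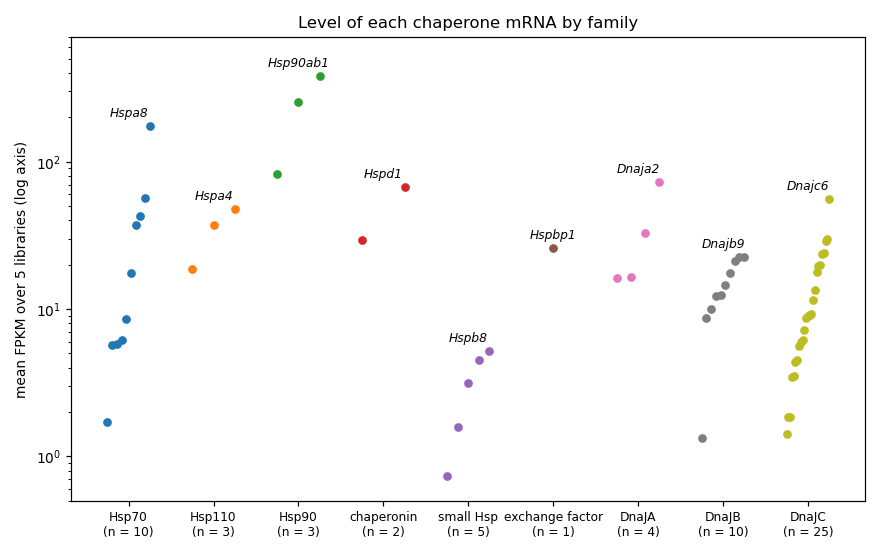
Mean FPKM over 5 libraries (HuD KO replicates 1 and 3 with control replicates 1 to 3) of each of the 63 members, on a log axis, grouped by family, with 1 point per gene and the highest gene of each family named. The Hsp90 genes lie between 82.2 and 382.9 FPKM, and the small heat shock protein genes between 0.73 and 5.17 FPKM.

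Loss of HuD was not accompanied by a change in any of these mRNAs that passed the adjusted test. In limma on log2(FPKM + 1), 0 of 63 members had an adjusted p under 0.05, where 0.0457% of the 13121 genes tested did (6 genes). Over all 6 libraries 0 of 63 passed, against 0.0305% of the 13114 genes tested. At an unadjusted p under 0.05 there were 2 members (3.17%), Dnajc14 and Hspa8, where 3.43% of all genes reached that level. Over all 6 libraries there were also 2 members, Dnajc14 and Dnajb3, where 3.48% of all genes did. The values of HuD KO and control libraries did not overlap for 12 of the 63 members (19.0%), beside 19.2% of all genes tested. HuD KO was higher for 4 of these members, Hspa8, Dnaja2, Dnajc11 and Dnajc14 (8.20% of all genes), and lower for 8 (11.0% of all genes). With all 6 libraries the groups did not overlap for 7 members (11.1%), beside 10.1% of all genes. HuD KO was then higher for Dnajc11 and Dnajc14 (4.43% of all genes), and lower for Dnaja1, Dnajb3, Dnajb9, Dnajc15 and Hsp90b1 (5.70% of all genes). All 63 members had entered the fit, because each averaged at least 0.5 FPKM.

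The size of the differences was small for most members. The median log2 fold change, HuD KO minus control on the log2(FPKM + 1) scale, was -0.03 over the members and -0.02 over all genes. It was -0.05 and -0.01 over all 6 libraries. There were 24 positive and 39 negative values among the members (61.9% negative, against 55.5% of all genes). The 95% interval lay within 0.5 on either side of 0 for 48 members and within 1 for 59. The 4 genes with wider or more distant intervals were Hspa5, Hspb1, Hspb3 and Dnajc14. Since 1 is added to each FPKM, these fold changes understate differences of the lowest genes, such as Hspb2.

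**Figure D2:**
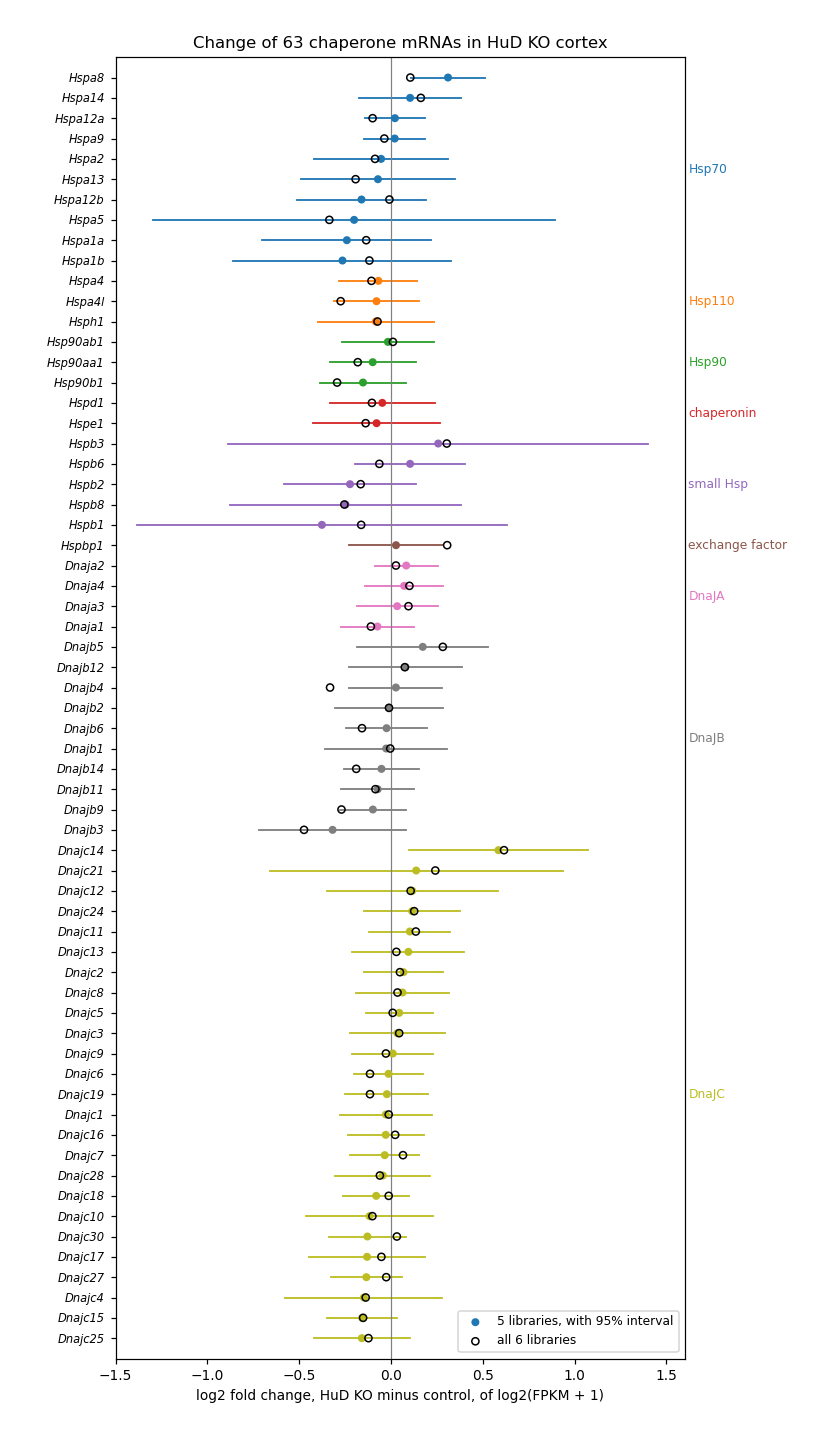
Log2 fold change of log2(FPKM + 1), HuD KO minus control, for all 63 members by family. Filled points with bars give the fit of 5 libraries with its 95% interval, and open points give the fit of all 6 libraries. The interval leaves out 0 for Hspa8 and Dnajc14 only.

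Among the cytosolic Hsp70 genes, Hspa8, the constitutive HSC70 that also strips clathrin from vesicles, had the smallest unadjusted p. It had 194 and 199.6 FPKM in HuD KO replicates 1 and 3, against 154, 152 and 170 FPKM in control replicates 1 to 3. Both HuD KO libraries lay above every control library. The log2 fold change was 0.31 (95% interval 0.11 to 0.51, unadjusted p = 0.00933, adjusted p = 0.995), and the smallest p that the exact two-sided permutation test of 2 against 3 libraries can give is 0.2, which Hspa8 reached. HuD KO replicate 2, with 128 FPKM, was the lowest of the 6 libraries, and with it the log2 fold change was 0.11 (unadjusted p = 0.583).

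The stress-inducible pair Hspa1a and Hspa1b varied more between mice than between genotypes. Hspa1a had 5.41, 6.53 and 4.72 FPKM in HuD KO replicates 1 to 3, against 4.74, 6.39 and 7.61 FPKM in control replicates 1 to 3. Hspa1b had 5.31, 6.99 and 4.49 FPKM in HuD KO replicates 1 to 3, against 4.56, 5.64 and 8.58 FPKM in control replicates 1 to 3. For both genes control replicate 3 was highest and HuD KO replicate 2 came next, and the groups overlapped. Their log2 fold changes were -0.24 (95% interval -0.70 to 0.22) and -0.26 (-0.86 to 0.33). Without control replicate 3 they were -0.11 and -0.04, without control replicate 1 they were -0.40 and -0.44, and for Hspa1b it was 0.10 over all 6 libraries without control replicate 3. The 2 genes lie side by side on the minus strand of chromosome 17, and their coding sequences in the GENCODE M21 annotation (1923 and 1926 bases) differ at 8 of 1923 aligned bases outside 1 gap of 3 bases. Reads can therefore be split between them, and the sum of both is firmer in that respect. Gm20481 overlaps 2225 of the 2967 bases of Hspa1a on the opposite strand, so antisense reads may enter the sum. The sum was 10.7, 13.5 and 9.21 FPKM in HuD KO replicates 1 to 3, against 9.30, 12.03 and 16.2 FPKM in control replicates 1 to 3.

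The promoters of this pair and of 2 further heat-inducible members are shown because they carry the letters of the element that HSF1 is known to read. Each line gives the 150 bases before the RefSeq start site on GRCm38.p6 in the gene's own direction, and capitals mark each match to GAANNTTC or TTCNNGAA, the 2-unit heat shock element, with overlapping matches joined.
Hspa1a (chr17:34972157-34972306, minus strand): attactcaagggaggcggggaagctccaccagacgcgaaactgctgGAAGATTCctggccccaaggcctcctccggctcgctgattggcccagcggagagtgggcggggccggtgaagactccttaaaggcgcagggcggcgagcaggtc
Hspa1b (chr17:34959239-34959388, minus strand): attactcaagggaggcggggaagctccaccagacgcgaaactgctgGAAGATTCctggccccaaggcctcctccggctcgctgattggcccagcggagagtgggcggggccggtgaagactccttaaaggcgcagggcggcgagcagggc
Hspb1 (chr5:135887769-135887918, plus strand): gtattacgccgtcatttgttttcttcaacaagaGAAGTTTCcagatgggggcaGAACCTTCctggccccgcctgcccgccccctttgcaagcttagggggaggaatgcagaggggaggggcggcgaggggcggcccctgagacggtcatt
Hspe1 (chr1:55087998-55088147, plus strand): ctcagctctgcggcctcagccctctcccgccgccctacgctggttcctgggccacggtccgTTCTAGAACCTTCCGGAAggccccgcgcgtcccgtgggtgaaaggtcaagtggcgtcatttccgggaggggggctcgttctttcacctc
The Hspa1a and Hspa1b stretches differed at 1 of 150 bases, so the pair shares its element letter for letter. Genes with the element did not share an order of libraries. Hspa1a, Hspa1b and Hspb1, of which the first 2 can share reads, were highest in control replicate 3 and next in HuD KO replicate 2, whereas Hspe1 was lowest in HuD KO replicate 2. Hspb1 carried 2 separate elements, and Hspe1 a run of overlapping ones that it shares with the neighbouring Hspd1, which is read from the other strand. In windows of 250 bases before and 50 bases after the start, on both strands, 15 of the 51 members with a RefSeq window held a 2-unit element (29.4%, against 17.0% of 27025 genes). The 3-unit element, GAANNTTCNNGAA or TTCNNGAANNTTC, was found for Hspd1, Hspe1, Hsph1 and the J-domain gene Dnajb6, 4 of 51 members (7.84%, against 0.662% of all genes). The 3-unit matches overlap 2-unit matches by construction, and a match is a description of letters only. No window was used for Dnajc2, Dnajc5, Dnajc11, Dnajc12, Dnajc18, Dnajc30, Hsp90aa1, Hsp90ab1, Hspa8, Hspa9, Hspa13 and Hspb2.

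Hspa5 (BiP), the Hsp70 of the endoplasmic reticulum, varied most among the members that averaged above 10 FPKM. It had 23.6, 24.1 and 44.0 FPKM in HuD KO replicates 1 to 3, against 41.3, 22.1 and 56.4 FPKM in control replicates 1 to 3. Low and high libraries occurred in both genotypes, and the highest library was 2.55 times the lowest. The log2 fold change was -0.20 with a wide 95% interval of -1.29 to 0.89. It was 0.24 when HuD KO replicate 1 was left out and -0.64 when replicate 3 was. Hsp90b1 (GRP94), the Hsp90 of the same compartment, had 77.7, 57.1 and 76.0 FPKM in HuD KO replicates 1 to 3, against 79.6, 83.4 and 94.3 FPKM in control replicates 1 to 3. All 3 HuD KO libraries lay below all control libraries, with a log2 fold change of -0.15 (95% interval -0.39 to 0.08, adjusted p = 0.995), and of -0.29 over all 6 libraries.

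The promoters of Hspa5, Hsp90b1 and Dnajc3 are shown because these 3 of 51 members (5.88%, against 0.137% of all genes) held the endoplasmic reticulum stress element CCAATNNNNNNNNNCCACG on either strand of the same windows. Capitals mark that element in the 150 bases before the RefSeq start (GRCm38.p6), and Hsp90b1 had a further copy upstream of the stretch shown.
Hspa5 (chr2:34771940-34772089, plus strand): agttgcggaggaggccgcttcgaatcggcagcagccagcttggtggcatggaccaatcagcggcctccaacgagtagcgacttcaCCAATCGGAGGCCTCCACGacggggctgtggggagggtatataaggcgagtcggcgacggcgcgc
Hsp90b1 (chr10:86705445-86705594, minus strand): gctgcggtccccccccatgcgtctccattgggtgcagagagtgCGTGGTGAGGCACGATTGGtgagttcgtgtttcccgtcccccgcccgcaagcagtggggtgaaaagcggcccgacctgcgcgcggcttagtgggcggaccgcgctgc
Dnajc3 (chr14:118937782-118937931, plus strand): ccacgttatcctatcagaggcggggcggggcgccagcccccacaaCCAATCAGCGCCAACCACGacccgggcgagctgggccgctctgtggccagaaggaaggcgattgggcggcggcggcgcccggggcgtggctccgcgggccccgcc
The 3 mRNAs did not share an order of libraries. Dnajc3 (P58IPK), a luminal J-domain cochaperone, had 14.5, 13.9 and 12.7 FPKM in HuD KO replicates 1 to 3, against 12.1, 13.4 and 14.2 FPKM in control replicates 1 to 3. Its groups overlapped, and control replicate 1, where Hspa5 was high, gave its lowest value.

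The other J-domain proteins of the endoplasmic reticulum were steadier than Hspa5. Dnajb11 (ERdj3), which carries secreted clients to BiP, had 13.5, 13.8 and 14.9 FPKM in HuD KO replicates 1 to 3, against 14.8, 14.8 and 15.2 FPKM in control replicates 1 to 3. Dnajc10 (ERdj5), a disulfide reductase, had 17.1, 17.4 and 16.6 FPKM in HuD KO replicates 1 to 3, against 16.9, 16.5 and 22.1 FPKM in control replicates 1 to 3. Dnajc1 (ERdj1), a membrane cochaperone near the translocon, was low, at 1.65 to 1.99 FPKM in HuD KO libraries and 1.82 to 1.90 FPKM in control libraries. Apart from the high control replicate 3 of Dnajc10, these 3 genes kept close values in both genotypes, and their groups overlapped. Dnajb9 (ERdj4), which restrains the stress sensor IRE1, had 21.3, 14.9 and 22.1 FPKM in HuD KO replicates 1 to 3, against 23.9, 22.5 and 23.4 FPKM in control replicates 1 to 3. Its groups did not overlap, at a log2 fold change of -0.10 (95% interval -0.28 to 0.08) and of -0.27 over all 6 libraries, where HuD KO replicate 2 was again the lowest library. Hspa13, an Hsp70 relative of the microsomes, had 8.61, 6.14 and 7.79 FPKM in HuD KO replicates 1 to 3, against 7.43, 7.92 and 11.0 FPKM in control replicates 1 to 3, with overlap.

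Of the 21 genes of the endoplasmic reticulum stress list, 8 of them members, 0 passed the adjusted test and 0 had an unadjusted p under 0.05 in limma. Their log2 fold changes were positive for 8 and negative for 13, with a median of -0.03, near the -0.02 of all genes. Over all 6 libraries 11 were positive and 10 negative, with a median of 0.01. In that list Creld2, a secreted stress-induced protein, had 9.03, 16.5 and 8.82 FPKM in HuD KO replicates 1 to 3, against 6.41, 8.26 and 7.14 FPKM in control replicates 1 to 3 (log2 fold change 0.27, unadjusted p = 0.0627, and 0.54 over all 6 libraries). It was singled out after its values were seen, because its groups did not overlap. The same held for 19.2% of all genes tested over 5 libraries and 10.1% over 6. In the same list Hsp90b1 and Dnajb9 did not overlap either, with HuD KO cortex lower. HuD KO replicate 2 was the highest library for Creld2.

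The remaining Hsp70 genes had no difference that passed a test. Hspa9 (mortalin), which pulls proteins into mitochondria, had 50.7 to 57.3 FPKM in HuD KO libraries and 55.0 to 57.8 FPKM in control libraries. Hspa12a and Hspa12b, distant relatives, averaged 43.1 and 1.72 FPKM over 5 libraries, with log2 fold changes of 0.02 and -0.16. Hspa2, best known from the testis, averaged 17.5 FPKM, and the ribosome-associated Hspa14 averaged 6.13 FPKM, with log2 fold changes of -0.05 and 0.10.

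The exchange factors that reload Hsp70 were likewise without a called difference. Hspa4 (APG-2) had 48.2, 42.8 and 44.6 FPKM in HuD KO replicates 1 to 3, against 45.5, 49.3 and 51.3 FPKM in control replicates 1 to 3. Hsph1 (HSP105) had 40.8, 36.6 and 31.6 FPKM in HuD KO replicates 1 to 3, against 35.6, 38.3 and 40.5 FPKM in control replicates 1 to 3. Both overlapped between genotypes, and the log2 fold changes of the 3 Hsp110 genes lay between -0.08 and -0.07. Hspa4l (APG-1) had 19.4, 11.7 and 16.8 FPKM in HuD KO replicates 1 to 3, against 18.5, 18.8 and 20.1 FPKM in control replicates 1 to 3, so its spread was set by HuD KO replicate 2. Hspbp1, which opens the nucleotide site of Hsp70, had 25.1, 47.5 and 27.2 FPKM in HuD KO replicates 1 to 3, against 24.6, 28.5 and 24.0 FPKM in control replicates 1 to 3. HuD KO replicate 2 stood far above the other 5 libraries, and the log2 fold change was 0.03 without it and 0.31 with it.

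The cytosolic Hsp90 genes, the most abundant members, differed little. Hsp90ab1 had 358, 402 and 403 FPKM in HuD KO replicates 1 to 3, against 357, 382 and 414 FPKM in control replicates 1 to 3. The heat-inducible Hsp90aa1 had 236, 207 and 255 FPKM in HuD KO replicates 1 to 3, against 256, 248 and 287 FPKM in control replicates 1 to 3. The groups overlapped for both, with log2 fold changes of -0.02 (95% interval -0.27 to 0.23) and -0.10 (-0.33 to 0.13), and of 0.01 and -0.18 over all 6 libraries. Of the mitochondrial chaperonin, the ring subunit gene Hspd1 (HSP60) had 67.1, 58.4 and 64.5 FPKM in HuD KO replicates 1 to 3, against 62.1, 64.9 and 78.0 FPKM in control replicates 1 to 3. Its lid Hspe1 (HSP10) had 28.6, 24.9 and 28.1 FPKM in HuD KO replicates 1 to 3, against 29.3, 25.8 and 35.5 FPKM in control replicates 1 to 3. Control replicate 3 was the highest library and HuD KO replicate 2 the lowest for each of these subunits, whose genes share 112 bases on opposite strands.

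Small heat shock protein genes were low and uneven. Hspb1 (HSP27), an actin-protecting chaperone, had 4.28, 5.90 and 2.71 FPKM in HuD KO replicates 1 to 3, against 2.48, 5.08 and 7.93 FPKM in control replicates 1 to 3. The control libraries enclosed all 3 HuD KO libraries, and the log2 fold change was -0.38 (95% interval -1.38 to 0.63). With 1 library left out it lay between -0.74 (without control replicate 1) and -0.06 (without control replicate 3), and over all 6 libraries without control replicate 3 it was 0.16. Hspb8 (HSP22), which works with Bag3 in autophagy of aggregates, had 4.51, 4.36 and 4.36 FPKM in HuD KO replicates 1 to 3, against 4.53, 4.30 and 8.16 FPKM in control replicates 1 to 3. Control replicate 3 alone held the log2 fold change of -0.25, which was 0.01 without that library. Hspb3, a small heat shock protein known from muscle, had 2.33, 3.76 and 4.60 FPKM in HuD KO replicates 1 to 3, against 3.22, 4.49 and 1.04 FPKM in control replicates 1 to 3. Here control replicate 3 was the lowest library, and the highest was 4.43 times as high, the widest ratio among the members over 5 libraries. Hspb2, the partner of Hspb3, had 0.389, 0.768 and 0.767 FPKM in HuD KO replicates 1 to 3, against 0.705, 0.813 and 0.978 FPKM in control replicates 1 to 3, with overlap. It lies over 1030 of its 1277 bases within Cryab on the opposite strand, which was far higher at 20.2 to 36.6 FPKM in HuD KO libraries and 25.0 to 32.2 FPKM in control libraries. No source used here says whether strand entered the FPKM values, so the reads of the 2 genes may not be told apart.

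Dnajc14 had the largest log2 fold change of all members. This gene (chr10:128804062-128819446, plus strand, in the coordinates of the table on mm10) encodes a J-domain protein of the endoplasmic reticulum membrane that binds the dopamine D1 receptor. It had 9.35, 8.17 and 6.17 FPKM in HuD KO replicates 1 to 3, against 5.71, 4.19 and 4.44 FPKM in control replicates 1 to 3. All 3 HuD KO libraries lay above all control libraries, with the least distance between HuD KO replicate 3 and control replicate 1. The log2 fold change was 0.59 over 5 libraries (95% interval 0.10 to 1.07, unadjusted p = 0.0268, adjusted p = 0.995). Over all 6 it was 0.62 (unadjusted p = 0.00867, adjusted p = 0.871), and the exact permutation test gave 0.1, the smallest p that 3 against 3 allows. It ranged between 0.32 when HuD KO replicate 1 was left out and 0.85 when replicate 3 was. Its locus overlaps that of Sarnp over 2114 bases on the same strand, Ormdl2 over 1545 bases and Tmem198b over 309 bases on the other. Whether reads of these neighbours enter the Dnajc14 values was not tested. Ormdl2 had 2.46, 2.21 and 1.31 FPKM in HuD KO replicates 1 to 3. In control replicates 1 to 3 it had 1.39, 1.90 and 2.36 FPKM (log2 fold change -0.01). Tmem198b had a log2 fold change of -0.17. Sarnp, an mRNA export factor with higher levels, had 23.6, 38.3 and 23.8 FPKM in HuD KO replicates 1 to 3, against 24.9, 25.2 and 25.8 FPKM in control replicates 1 to 3 (log2 fold change -0.09).

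**Figure D3:**
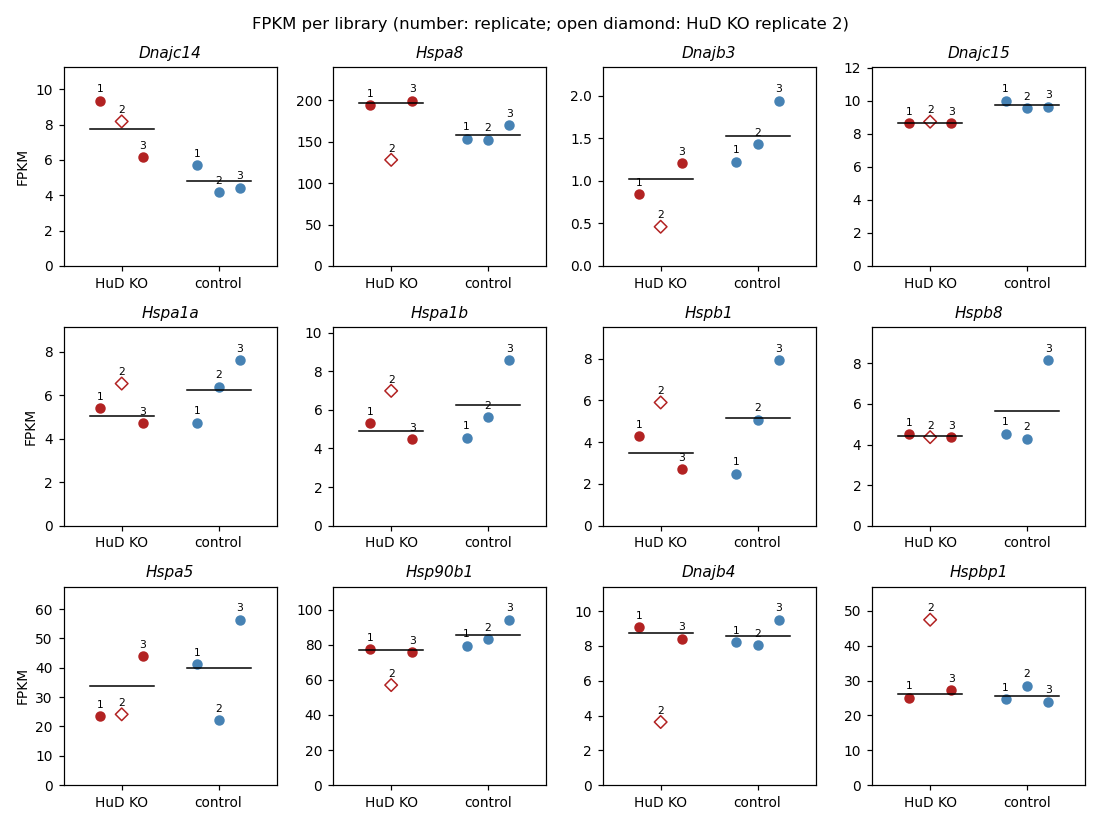
FPKM in each library for 12 members, HuD KO at the left and control at the right of each panel, with the replicate number beside each point and the group mean as a line. HuD KO replicate 2 is the open diamond and is left out of the mean. Dnajc14, Dnajb3, Dnajc15 and Hsp90b1 keep the genotypes apart in all 6 libraries, whereas Hspa1a, Hspa1b and Hspb1 give nearly the same order of libraries, which crosses the genotypes.

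Dnajb3, a low J-domain gene otherwise known from the testis, had 0.841, 0.460 and 1.21 FPKM in HuD KO replicates 1 to 3, against 1.23, 1.43 and 1.94 FPKM in control replicates 1 to 3. The groups met almost at 1.21 and 1.23 FPKM but did not overlap. The log2 fold change was -0.32 over 5 libraries (unadjusted p = 0.0982) and -0.47 over all 6 (unadjusted p = 0.0341, adjusted p = 0.871). All 1051 bases of Dnajb3 lie within the Ugt1a gene cluster on the opposite strand, so antisense reads may enter its value. Dnajc15 (MCJ), a J-domain protein of the inner mitochondrial membrane, was steady within each genotype. It had 8.64, 8.74 and 8.63 FPKM in HuD KO replicates 1 to 3, against 10.02, 9.56 and 9.64 FPKM in control replicates 1 to 3. The 3 HuD KO values lay closer to each other than to any control value, at a log2 fold change of -0.16 (95% interval -0.35 to 0.03, unadjusted p = 0.0882, adjusted p = 0.995). It was named after its values were seen.

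The J-domain genes of classes A and B outside the endoplasmic reticulum had no difference that passed the adjusted test. Dnaja1, a general partner of HSC70, had 31.7, 29.2 and 31.4 FPKM in HuD KO replicates 1 to 3, against 31.9, 32.5 and 35.6 FPKM in control replicates 1 to 3. Dnaja2, which works with HSC70 in refolding, had 74.5, 67.2 and 76.7 FPKM in HuD KO replicates 1 to 3, against 71.1, 73.6 and 69.3 FPKM in control replicates 1 to 3. The groups did not overlap over 5 libraries for either gene, Dnaja1 lower and Dnaja2 higher in HuD KO cortex, by log2 fold changes of -0.07 (95% interval -0.27 to 0.13) and 0.08 (-0.09 to 0.26). Over all 6 libraries they were -0.11 and 0.03, and the Dnaja2 groups overlapped. Dnaja4 had 18.1, 18.2 and 16.0 FPKM in HuD KO replicates 1 to 3, against 16.0, 15.7 and 16.8 FPKM in control replicates 1 to 3. Dnajb1 (HSP40), the heat-inducible partner of Hsp70, had 17.8, 18.1 and 16.7 FPKM in HuD KO replicates 1 to 3, against 15.2, 17.3 and 20.5 FPKM in control replicates 1 to 3. Neither Dnaja4 nor Dnajb1 separated the genotypes. Dnajb6, a suppressor of polyglutamine aggregation, had 20.8, 16.7 and 24.0 FPKM in HuD KO replicates 1 to 3, against 23.5, 22.2 and 22.6 FPKM in control replicates 1 to 3, with overlap. Dnajb4 had 9.09, 3.63 and 8.43 FPKM in HuD KO replicates 1 to 3, against 8.24, 8.05 and 9.51 FPKM in control replicates 1 to 3. Only HuD KO replicate 2 stood apart there, and the log2 fold change was 0.03 without it and -0.33 with it. Dnajb5 had the largest positive value of class B, at 20.4 to 28.6 FPKM in HuD KO libraries and 17.4 to 22.7 FPKM in control libraries. Its groups overlapped, with a log2 fold change of 0.17 (95% interval -0.18 to 0.53) and of 0.28 over all 6 libraries.

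Class C proteins share only the J domain, and each serves its own process. Dnajc6 (auxilin), which brings HSC70 to clathrin coats and was the highest DnaJC gene, had 56.8, 44.95 and 54.6 FPKM in HuD KO replicates 1 to 3, against 53.2, 58.3 and 57.2 FPKM in control replicates 1 to 3. Dnajc5 (cysteine string protein), the folding partner of SNAP-25 on synaptic vesicles, had 22.1 to 24.4 FPKM in HuD KO libraries and 22.3 to 23.9 FPKM in control libraries. Neither synaptic cochaperone separated the genotypes, with log2 fold changes of -0.01 and 0.04, and of -0.11 and 0.01 over all 6 libraries. Dnajc21, a ribosome assembly factor, had 8.53, 11.7 and 10.001 FPKM in HuD KO replicates 1 to 3, against 9.63, 11.6 and 5.00 FPKM in control replicates 1 to 3, where control replicate 3 was the low library. Without it the log2 fold change of 0.14 became -0.18. Dnajc11 of the mitochondrial inner membrane organising system had 4.58 to 4.99 FPKM in HuD KO libraries, against 3.96 to 4.37 FPKM in control libraries, without overlap in all 6 (log2 fold change 0.10). Dnajc18, Dnajc25 and Dnajc27, named after their values were seen, were lower in HuD KO replicates 1 and 3 than in the control libraries (log2 fold changes -0.08, -0.16 and -0.13), but overlapped once HuD KO replicate 2 was counted. Dnajc18 had 19.0 to 22.1 FPKM in HuD KO libraries and 19.7 to 20.96 FPKM in control libraries. Dnajc25 had 1.19 to 1.44 FPKM in HuD KO libraries and 1.35 to 1.623 FPKM in control libraries. Gm20503 overlaps 22364 of the 30512 bases of the Dnajc25 locus on the same strand, so the 2 genes may share reads. The log2 fold change of Gm20503 was -0.24. Dnajc27 had 22.4 to 28.6 FPKM in HuD KO libraries and 23.8 to 26.4 FPKM in control libraries. All 3 ranges overlapped. For the 25 DnaJC genes the log2 fold changes lay between -0.16 and 0.59, with 11 positive and 14 negative. Over all 6 libraries 13 were positive and 12 negative.

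The heat shock factor targets and the helper proteins of Hsp70 and Hsp90 were read as lists, by their counts. Of 22 heat shock factor targets, 13 of them members, 0 passed the adjusted test, and 1, Hspa8, had an unadjusted p under 0.05 in limma. The log2 fold changes were positive for 4 and negative for 18, where 55.5% of all genes were negative. Their median was -0.08 beside -0.02 over all genes. Over all 6 libraries 3 were positive and 19 negative, with a median of -0.11 beside -0.01 over all genes. Control replicate 3 was high for this list, with a median of 0.22 on the log2 scale above the mean of the other libraries (here and below, of those in the 5-library comparison), whereas its median over all genes was 0.04. The median of that library was also 0.17 for the endoplasmic reticulum stress list and 0.17 for the cytosolic chaperonin. For the other cochaperones it was 0.03. Of 24 other cochaperones 0 passed and 0 had an unadjusted p under 0.05, with 12 positive and 12 negative. That list shares Ahsa1, Bag3, Chordc1, Fkbp4 and Stip1 with the heat shock factor targets, and it holds the member Hspbp1. Hsf1, the gene of the heat shock factor itself, had 2.63, 2.97 and 2.89 FPKM in HuD KO replicates 1 to 3, against 2.13, 2.66 and 2.24 FPKM in control replicates 1 to 3, with overlap through HuD KO replicate 1 and control replicate 2. Of the cytosolic chaperonin, the ring that folds actin and tubulin, 7 genes were tested and 0 had an unadjusted p under 0.05.

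A pair of libraries gave most of the extreme values, as they did for all genes. Control replicate 3 was the highest library for 24 of the 63 members (38.1%, against 28.5% of all genes), and HuD KO replicate 2 the lowest for 23 (36.5%, against 31.0%) and the highest for 14 (22.2%, against 33.0%). Over 5 libraries the highest value was at least 2 times the lowest for 7 members (11.1%), Hspb3, Hspb1, Hspa5, Hspb2, Dnajc21, Dnajb3 and Dnajc14, where 13.3% of all genes reached that ratio. With HuD KO replicate 2 there were 9 such members (14.3%) beside 22.9% of all genes. The choroid plexus genes were also highest in control replicate 3, and their part in its values was not tested.

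**Figure D4:**
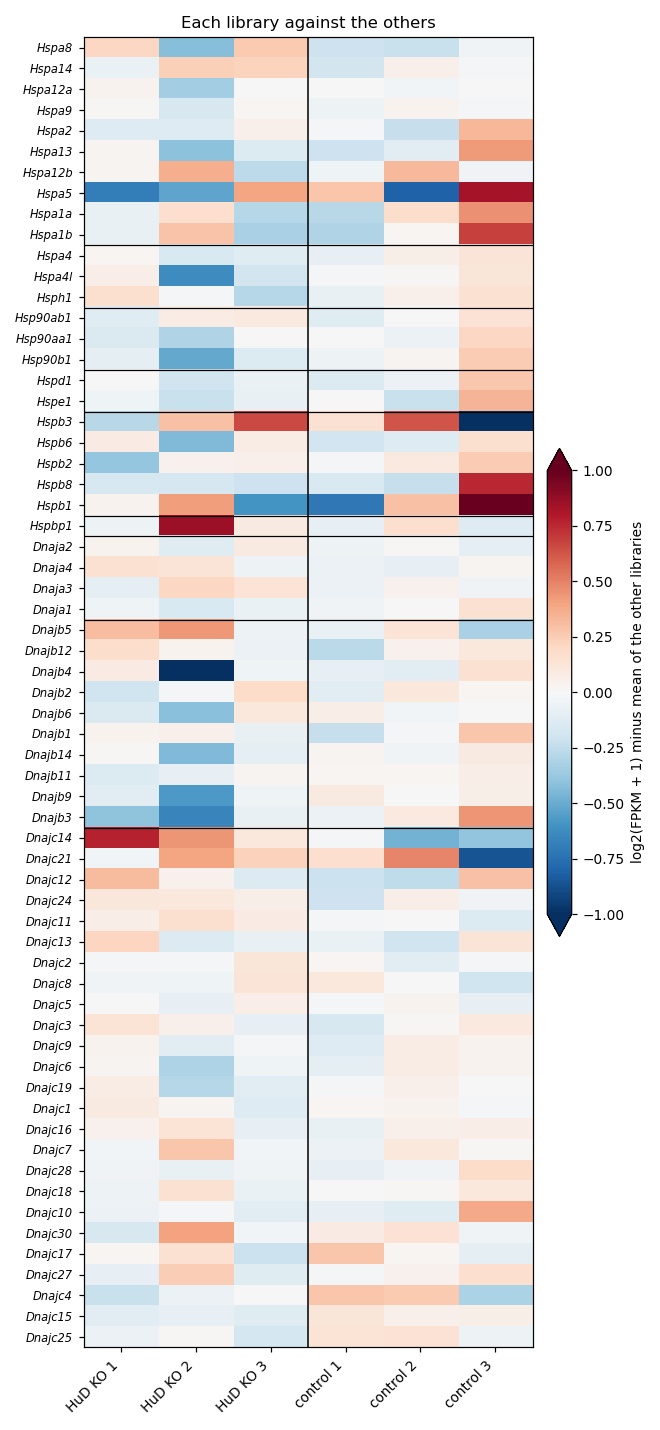
Each library against the mean of the other libraries of the 5-library comparison on the log2(FPKM + 1) scale for the 63 members, by family, with the 3 HuD KO libraries at the left and the 3 control libraries at the right. Red is higher and blue is lower, and the colours stop at 1. Control replicate 3 is red for Hspa5, Hspa1a, Hspa1b, Hspb1 and Hspb8 and blue for Hspb3 and Dnajc21, and HuD KO replicate 2 is red for Hspbp1 and blue for Dnajb4.

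The deviation of HuD KO replicate 2, and to a lesser degree of control replicate 2, went with the base composition of the transcripts. HuD KO replicate 2 lay more than 0.5 from the mean of the other libraries for 7 members (11.1%, against 19.3% of all genes). Its deviation went with the GC content of the longest transcript, at a Spearman correlation of 0.52 over the 63 members and 0.56 over 13084 genes, as a description of 1 library across genes that share it. Of the 21 members with the lowest GC content, 39.5% to 45.7%, it was below the other libraries for 17, among them Dnajb4, Hspa4l, Dnajb9 and Hsp90b1. It was above them for 4, among them Dnajc21. Of the 21 with the highest, 51.0% to 61.7%, it was above them for 15, among them Hspbp1. It was below them for 6, among them Dnajb3 (55.9%, deviation -0.66). In control replicate 2 the same correlation was 0.42 over the members and 0.21 over all genes. In the 4 other libraries it lay between -0.22 and 0.02 over the members.

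**Figure D5:**
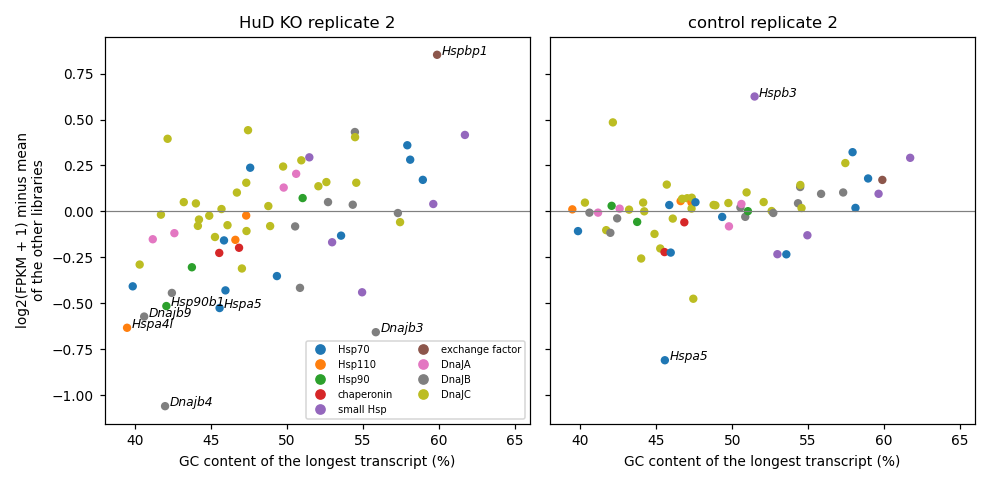
Deviation of HuD KO replicate 2 (left) and control replicate 2 (right) from the mean of the other libraries of the 5-library comparison, on the log2(FPKM + 1) scale, against the GC content of each member's longest transcript in percent, with 1 point per member coloured by family. In HuD KO replicate 2 the points climb with GC content, from Hspa4l and Dnajb4 at the low end to Hspbp1 at the high end. Dnajb3 departs from this, at 55.9% and -0.66. In control replicate 2 most points lie in a narrower range, with Hspa5 lowest and Hspb3 highest.

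The study's list of HuD-bound mRNAs, drawn up from other experiments, held 5 of the 63 members (7.94%, against 5.33% of the genes tested). They were Hspa8, Hspa13, Dnaja4, Dnajb6 and Dnajb9. Their log2 fold changes were 0.31, -0.07, 0.07, -0.02 and -0.10, with a median of -0.02, the same as that of all genes. Over all 6 libraries the median was -0.16, and HuD KO replicate 2 was the lowest library for Hspa8, Hspa13, Dnajb6 and Dnajb9. None of the 5 passed the adjusted test.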

How the data were processed

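RNA-seq libraries of 6 mouse neocortices were analysed, 3 HuD KO and 3 control. The authors deposited FPKM per gene and library after FastQC 0.11.5, cutadapt, Trimmomatic and STAR 2.7.3a alignment to mm10. No source used here names the program for FPKM. The library preparation marked strand, but whether FPKM used it is not stated. FPKM showed no steps of whole reads, so the depth behind each value is unknown and no counting interval is given. Summed FPKM per library was 216651 to 227439. All 13299 genes listed averaged 0.5 FPKM or more in 1 genotype. The deposited fold changes, p-values and q-values, the authors' genotype means and 1 line that names no gene were not used.

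Members and gene lists were chosen with earlier results of these data known. Genes averaging 0.5 FPKM or more in the compared libraries were fitted on log2(FPKM + 1) with limma 3.58.1 (R 4.3.3, trended empirical Bayes), with Benjamini-Hochberg adjustment over all of them. Two-sided exact permutation tests used SciPy 1.17.1, and figures matplotlib 3.10.9. Scripts were tested on simulated data. Members given in every library were the highest of each family, those at an unadjusted p under 0.05 in either fit, those in the heat shock factor, endoplasmic reticulum stress or HuD target lists, and the 8 with the largest ratio of highest to lowest library. Any other is named by its range, or as chosen after its values were seen. Promoters came from RefSeq (GRCm38.p6), and gene overlaps from GENCODE M21, where 19 members overlapped another protein-coding gene. Alternatives were all 6 libraries, a pseudocount of 0.1, a minimum mean of 2 FPKM and none, untrended variances, quantile normalization, scaling to the median, a replicate block, and each library left out.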

Additional observations from a re-analysis of the deposited data

How the results depend on the processing

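The 3 libraries per genotype and the unknown depth limit these results, and each library is 1 mouse. In 19 other settings 0 members passed the adjusted test. Among the 33 members that met the rules above for values in every library, the lowest adjusted p in limma was 0.442. Of these 33 members, 10 kept the sign of their log2 fold change in all settings, and 23 changed it in at least 1. Other members named in the text, such as Dnajc15, Dnajc11 and Dnajb5, were not part of that count. The count at an unadjusted p under 0.05, 2 in the comparison of 5 libraries, ran between 1 and 4 with 1 library left out, being 1 without HuD KO replicate 1 or 3 or control replicate 2, and 4 without control replicate 1. It was 1 over 6 libraries without control replicate 2. The median of the members, -0.03, lay between -0.063 (without control replicate 1) and -0.0036 (without control replicate 3) over 5 libraries, and between -0.076 and -0.0068 without the same libraries over 6, and was -0.0068 with median scaling. Among all genes, the 6 that passed became 2 with a pseudocount of 0.1, and 2 to 11 with 1 library left out (2 without HuD KO replicate 1 or control replicate 1, 11 without control replicate 3). Over 6 libraries 4 passed, and 2 to 7 with 1 left out (3 without HuD KO replicate 1 or control replicate 1, 2 without HuD KO replicate 3, 7 without control replicate 2). The cause was not tested. Correlations of same-numbered deviations were -0.12, 0.18 and 0.04, and those of different-numbered ones lay between -0.21 and 0.24. With 3 libraries per genotype they cannot show whether replicate numbers pair the mice. With a replicate block, 3 genes passed over 5 and over 6 libraries and 0 members did.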
